A study of Mus musculus with 4 samples.

Results

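The cytoplasmic ribosomal protein genes were taken as every row whose gene symbol follows the standard Rpl or Rps naming with a number, together with Rplp0, Rplp1, Rplp2 and Rpsa, and without symbols ending in -ps. The rule found 89 genes among 55450 rows, 36 of the small subunit and 53 of the large subunit. In the GENCODE vM21 annotation of GRCm38, 83 of them are protein coding and 6 are processed pseudogenes (Rpl32l, Rpl6l, Rps12l1, Rps3a2, Rps3a3 and Rps4l), which the naming rule does not separate. They lie on 19 chromosomes, 85 on autosomes and 4 on X, with 15 on chromosome 7. A further 300 rows with -ps symbols held 0.0446% to 0.0637% of UMIs (unique molecular identifiers, 1 for each captured RNA molecule) and were left out. Members share sequence with these copies. The handling of reads that match several copies is not given in the sources used here, which makes the level of a single member less certain than the sum.

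Ribosomes are built from ribosomal RNA and a large set of small proteins, and the proteins of both subunits are made in matched amounts. Their mRNAs are among the most abundant in dividing cells. Most begin with a run of pyrimidines at the transcript start, the terminal oligopyrimidine tract, through which mTORC1 and the RNA-binding protein Larp1 control their translation. Neutrophils, which are terminally differentiated, are known for a low content of these mRNAs.

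The data are droplet single-cell RNA counts from 4 subcutaneous tumours of C57BL/6J mice, 8 weeks old at injection. Mice received MC38 cells, a mouse colon carcinoma line, with Hnrnpa2b1 either knocked out (KO, 2 tumours) or left in place (WT, 2 tumours). All hosts carried the wild-type gene, so the host cells in both groups were of 1 genotype. The labels state neither whether the KO line is 1 clone nor whether each tumour came from its own mouse, so p-values measure the spread between these tumours. After filtering, 11344 and 10173 cells from WT tumours 1 and 2 were analysed, and 8648 and 8771 from KO tumours 1 and 2, from libraries of 114136609 to 153162562 UMIs. Between 23 and 43 barcodes were shared by any 2 libraries, against 13.5 to 21.8 by chance.

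Cells were grouped into classes by marker genes. The epithelial markers set for tumour cells summed to only 38.4 to 57.5 CPM (library-scaled counts) in the largest class, so it is called by its rule, Xist-low cells: clusters with a mean under 1 UMI of Xist and under 1 of Ptprc (CD45) per 10000. That rule was set after values had been seen. The targeted gene, Hnrnpa2b1, had 565 and 552 CPM there in WT tumours 1 and 2, against 360 and 325 CPM in KO tumours 1 and 2 (log2 fold change -0.71, standard error 0.13, edgeR adjusted p = 0.0281). It was lower but not absent, and where in the gene the edit lies was not known here. Its log2 fold change was -0.13 in mononuclear phagocytes and -0.18 in T and NK cells, and neither passed (edgeR adjusted p = 0.761 and 0.521).

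WT tumour 1 stood apart from the other 3 libraries. Its ribosomal protein share was the highest in 12 of 12 classes, and its mitochondrial share was the lowest in 12 of 12. With mitochondrial UMIs left out, WT tumour 1 stayed highest in Xist-low cells, mononuclear phagocytes and T and NK cells. Xist-low cells then stood at 24.7% and 22.0% in WT and 20.1% and 22.1% in KO tumours. Mononuclear phagocytes stood at 14.6% and 8.53% against 7.75% and 8.68%. T and NK cells stood at 22.8% and 18.0% against 17.3% and 19.3%. What set this tumour apart was not tested. The main values are also given without this tumour.

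The transcript starts of the genes on which the results turn are shown first, because a pyrimidine run near the start was more common among members than among all genes. RefSeq start-site windows (GRCm38.p6) could be matched for 64 of 89 members. In the 60 bases centred on the start, 30 on each side, a run of 8 or more C or T on the transcript strand was found in 36 of 64 members (56.2%), against 6965 of 27025 genes with a window (25.8%). On the opposite strand the shares were 12.5% of members and 28.7% of all genes. With a run of 6 the shares were 78.1% and 53.5%, and with a run of 10 they were 42.2% and 12.6%. The letters CTTTC, which can lie within such a run, were in 34.4% of members and 9.18% of all genes on the transcript strand, and in 45.3% and 16.9% on either strand. The mitochondrial ribosomal protein genes, which build a separate ribosome, had the run of 8 in 27.5% of 69 genes. Window and run length were chosen after sequences had been looked at. Below are 30 bases around the start of each gene, 5′ to 3′ on the transcript strand, 15 before the start and 15 from it on, with the longest run of C and T in capitals.

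Rps27 (chr3:90213634-90213663, minus strand): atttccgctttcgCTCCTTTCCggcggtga

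Rps27l (chr9:66946071-66946100, plus strand): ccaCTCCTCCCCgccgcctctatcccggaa

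Rpl35 (chr2:39005117-39005146, minus strand): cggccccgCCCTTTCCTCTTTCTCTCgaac

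Rpl39 (chrX:37085208-37085237, minus strand): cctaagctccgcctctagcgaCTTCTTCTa

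Rps2 (chr17:24720048-24720077, plus strand): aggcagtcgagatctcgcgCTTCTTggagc

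Rpl22l1 (chr3:28805493-28805522, plus strand): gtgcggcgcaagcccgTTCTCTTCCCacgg

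Rpl22 (chr4:152325711-152325740, plus strand): ttcgCCCTgggaaaagcaatagctggccga

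Rpl7l1 (chr17:46782642-46782671, minus strand): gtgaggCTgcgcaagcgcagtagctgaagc

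Rps27l and Rpl22 each have a second annotated start. The runs in capitals for Rps27l, Rpl22 and Rpl7l1 lie wholly before the start shown. The longest run was 18 bases in Rpl35 and 2 bases in Rpl7l1, the single member that rose in Xist-low cells (below). For Rpl7l1 the longest run within the 60-base window was 5 bases.

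Ribosomal protein genes took a larger share of UMIs in Xist-low and lymphoid cells than in mononuclear phagocytes, and the smallest share in neutrophils. Xist-low cells devoted 24.4% and 21.5% of UMIs to the 89 genes in the WT pair, against 19.8% and 21.8% in the KO pair (tumour 1 before tumour 2). NK cells, cytotoxic innate lymphocytes, stood at 24.6%, 18.0%, 19.2% and 19.7% in the same order. Both classes were among the 3 highest of 12 in every tumour. Mononuclear phagocytes (monocytes and macrophages) stood at 14.4%, 8.29%, 7.64% and 8.56%. Neutrophils stood at 9.92%, 4.14%, 3.24% and 3.48%, below the 11 other classes in each tumour. Mononuclear phagocytes were the next lowest class after neutrophils in all 4 tumours. The 95% Wilson interval, which covers counting error only, ran from 9.68% to 10.2% for the 51 neutrophils of WT tumour 1 and from 22.7% to 23.6% for its 12 CD8 T cells.

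**Figure D1:**
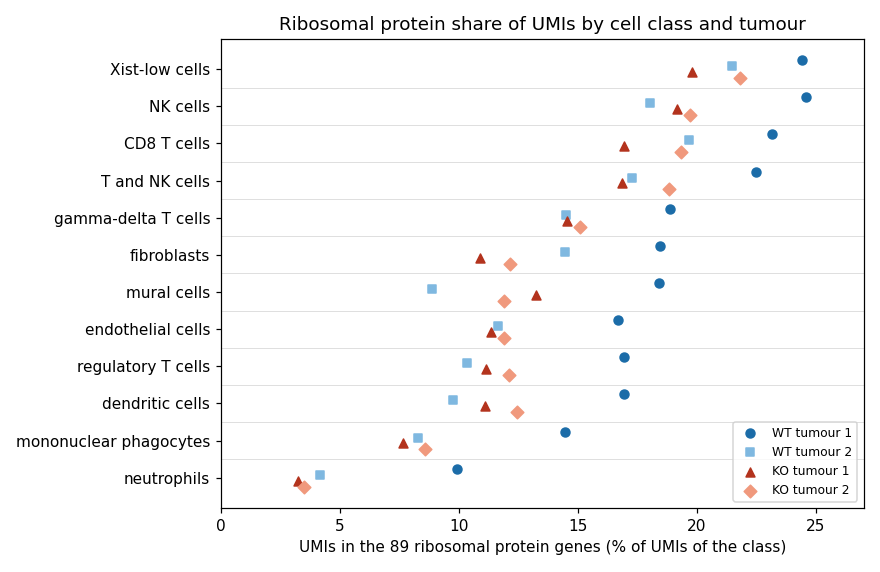
Percent of UMIs in the 89 ribosomal protein genes (x axis) in each of 12 cell classes (y axis), with 1 point for each tumour. WT tumour 1 lies to the right of the other 3 tumours in every class, and neutrophils are lowest.

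Within the lymphoid compartment the share also differed by cell type. CD8 T cells stood at 23.2%, 19.7%, 16.9% and 19.4% (WT tumours 1 and 2, KO tumours 1 and 2), the WT values from 12 and 27 cells. Regulatory T cells, which restrain other T cells, stood at 16.9%, 10.3%, 11.1% and 12.1%, below CD8 T and NK cells in each tumour. Gamma-delta T cells lay between, at 18.9%, 14.5%, 14.5% and 15.1%. These cell types are parts of the T and NK class, whose share was 22.5%, 17.3%, 16.8% and 18.8%. The classes were not tested against each other, because clusters were formed from the same genes. Median UMIs per cell ran from 1017 to 1884.5 in neutrophils and from 11697 to 38591 in Xist-low cells, and the part of depth in the order of classes was not tested beyond the depth bands given below.

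The mean share was lower in the KO tumours in 12 of 12 classes, but the 2 groups separated in 3 of them. In Xist-low cells it was 23.0% ± 2.07 in WT and 20.8% ± 1.41 in KO tumours (SD, n = 2), and the groups overlapped. In mononuclear phagocytes it was 11.4% ± 4.35 and 8.10% ± 0.650, and in T and NK cells 19.9% ± 3.70 and 17.8% ± 1.40, again overlapping. The groups did not overlap in fibroblasts (16.5% ± 2.84 and 11.5% ± 0.890), neutrophils (7.03% ± 4.08 and 3.36% ± 0.174) and CD8 T cells (21.4% ± 2.49 and 18.1% ± 1.70). As a mean over cells the CD8 T groups overlapped, at 22.9% and 17.6% in WT and 16.1% and 18.7% in KO tumours. Fibroblasts and neutrophils stayed apart by that measure. By the median over cells the fibroblast groups overlapped, at 14.5% and 10.3% in WT and 10.1% and 11.1% in KO tumours. Of 2 fibroblast clusters, the groups overlapped in 1 and KO lay below WT in 1. With 2 tumours against 2, an exact two-sided permutation test cannot go below p = 0.33, so no such difference could pass.

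Leaving out WT tumour 1 made each of the differences below smaller or turned it. Without it, the KO minus WT difference was -0.681 percentage points in Xist-low cells in place of -2.15, and -0.192 in mononuclear phagocytes in place of -3.27. In T and NK cells it was 0.567 in place of -2.05, and in NK cells 1.42 in place of -1.87, a change of sign in both. In fibroblasts it was -2.94 in place of -4.95, and in neutrophils -0.783 in place of -3.67. WT tumour 2 alone also lay below the KO mean in regulatory T cells (10.3% against 11.6%), gamma-delta T cells (14.5% against 14.8%), dendritic cells (9.76% against 11.8%) and mural cells (8.87% against 12.6%). The sign of the difference therefore turned without WT tumour 1 in 6 of the 12 classes. These 12 count the T and NK class and its parts separately, and the mural value of WT tumour 2 rests on 3 cells with 10030 UMIs.

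Free RNA, released by other cells and captured with each droplet, was estimated from 10 genes of Xist-low cells, Krt14 and Sox9 among them, in a step added after seeing the data. The estimate was 37.8% and 15.7% of neutrophil UMIs in WT tumours 1 and 2, against 11.7% and 9.24% in KO tumours 1 and 2. In fibroblasts it was 45.1% and 43.5% against 11.7% and 18.1%. Median UMIs per cell in WT tumour 1 were 11120 in fibroblasts and 1017 in neutrophils, so the estimated amount per cell differed between these classes. Any RNA of the 10 genes counted in the estimate, and its source was not tested. After subtraction of the estimate the share in neutrophils was 2.29% and 1.20% in WT and 1.61% and 1.89% in KO tumours, and the groups overlapped. In fibroblasts it was 14.02% and 9.72% against 10.2% and 10.55%, also overlapping. In mononuclear phagocytes the estimate was 17.4% and 11.97% in WT against 6.50% and 5.78% in KO tumours. Its subtraction left shares of 12.5% and 6.62% against 7.09% and 7.91%, with WT tumour 2 below both KO tumours, and a difference of -2.05 percentage points in place of -3.27. The subtraction in T and NK cells moved the shares to 22.0% and 16.8% in WT and 16.9% and 18.8% in KO tumours.

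Xist-low cells of the KO tumours were more deeply counted than those of the WT tumours. The share was lowest in the shallowest cells of WT tumours 1 and 2 and of KO tumour 1. In KO tumour 2 it was 15.4% at 500 to 2000 UMIs per cell and lowest, 14.3%, at 2000 to 5000. Median UMIs per Xist-low cell were 11883 and 11697 in WT and 38591 and 31500 in KO tumours. At 10000 to 20000 UMIs per cell the share was 24.2% and 21.5% in WT and 16.7% and 20.6% in KO tumours. At 20000 to 40000 UMIs it was 23.97% and 22.2% against 19.4% and 21.7%. The KO tumours lay below both WT tumours in 5 of 6 such bands. Over cells with 5000 to 20000 UMIs the shares were 24.4% and 20.98% in 6509 and 4583 WT cells, and 15.95% and 20.4% in 146 and 230 KO cells. Different clusters held most of the class in the 2 groups: the cluster led by Gja4 and Nppb had 801 and 1221 cells from KO tumours 1 and 2 but 110 and 208 from WT tumours 1 and 2. Within that cluster the share was 22.2% and 19.5% in WT and 19.6% and 21.3% in KO tumours. Of the 6 Xist-low clusters with at least 20 cells in every tumour, the groups overlapped in 5 and KO lay below WT in 1. Mononuclear phagocytes and T and NK cells were also deeper in the KO tumours. Over cells of 5000 to 20000 UMIs the groups did not overlap in either. Phagocytes stood at 15.6% and 9.69% in WT and 7.72% and 8.91% in KO tumours. T and NK cells stood at 24.9% and 21.9% (52 and 47 cells) against 17.7% and 21.04%. By narrower band, KO lay below WT in 3 of 4 phagocyte bands and 1 of 3 T and NK bands. The groups overlapped in 2 of 3 phagocyte and 6 of 6 T and NK clusters.

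**Figure D2:**
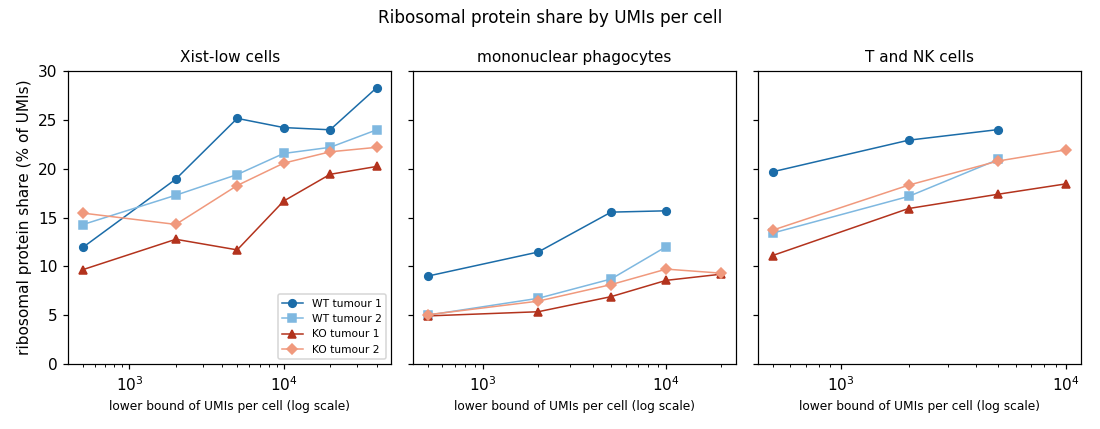
Percent of UMIs in ribosomal protein genes (y axis) by band of UMIs per cell (x axis, lower bound of the band, log scale) in 3 classes, 1 line for each tumour and only bands with at least 20 cells. In the highest band of Xist-low cells WT tumour 1 is at 28.3% and KO tumour 1 at 20.2%.

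The balance between subunits varied little. UMIs in small-subunit genes were 0.858 and 0.889 times those in large-subunit genes in Xist-low cells in WT, and 0.841 and 0.834 times in KO. In mononuclear phagocytes the ratio was 0.855, 0.894, 0.872 and 0.862, and in T and NK cells 0.881, 0.929, 0.895 and 0.914. WT tumour 2 had the highest ratio in each of these 3 classes. By UMIs, not corrected for transcript length, Rpl23 (2.95% of member UMIs, mean of 4 tumours) and Rpl41 (2.74%) were among the most counted members in Xist-low cells. The 10 most counted took 25.4% to 26.7% of member UMIs in each tumour.

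In Xist-low cells 1 ribosomal protein gene rose in the KO tumours and none passed as lower. Of 89 members, 86 had enough counts to be tested; Rpl10l, Rpl39l and Rpl3l did not. By edgeR's quasi-likelihood test with Benjamini-Hochberg adjustment over all 17994 genes, 1 of 86 was higher and 0 were lower, against 4.73% of all tested genes higher and 4.55% lower. At an unadjusted p under 0.05, 1 was higher and 3 were lower, against 5345 of all 17994 genes in either direction. DESeq2 called 1 member higher and 7 lower, against 1447 genes higher and 1282 lower. The median log2 fold change was -0.16 over the members and -0.01 over all genes, and the members' median was -0.06 without WT tumour 1. Small-subunit members had a median of -0.19 and large-subunit members of -0.12. Both KO tumours lay below both WT tumours for 26 of 86 members, against 25.3% of all genes, and above for 10, against 33.4%.

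The gene that rose was Rpl7l1, a relative of Rpl7 known from assembly of the large subunit. Its level was 1.24 and 1.17 UMIs per 10000 in WT and 1.76 and 1.73 in KO tumours, and the groups did not overlap. Its log2 fold change was 0.48 (standard error 0.11, edgeR adjusted p = 0.0465). The call was lost with a replicate block (log2 fold change 0.48, edgeR adjusted p = 0.134), without WT tumour 2 (0.42, adjusted p = 0.105), without KO tumour 1 (0.52, 0.136) and without KO tumour 2 (0.44, 0.230). In cells with 5000 to 20000 UMIs the log2 fold change was 0.17, which missed the threshold (edgeR adjusted p = 0.643). The gene lies at chr17:46773907-46782672 on the minus strand (GRCm38).

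Rps27 had the lowest log2 fold change among tested members in Xist-low cells. This small-subunit protein stood at 39.9 and 31.3 UMIs per 10000 in WT and 23.6 and 22.6 in KO tumours, without overlap. Its log2 fold change of -0.68 (standard error 0.19) did not pass by edgeR (adjusted p = 0.0690). Rpl39, a small protein of the peptide exit tunnel, stood at 48.7 and 44.3 against 36.1 and 34.01 UMIs per 10000 (log2 fold change -0.47, standard error 0.18, edgeR adjusted p = 0.133). Rpl35, which sits beside the tunnel exit, stood at 22.0 and 17.0 against 13.98 and 15.3 (-0.47, standard error 0.19, edgeR adjusted p = 0.158). For each of these 3 genes both KO tumours were below both WT tumours. All 3 passed with DESeq2 (adjusted p = 0.000624, 0.00448 and 0.0480 for Rps27, Rpl39 and Rpl35) and with edgeR without the filter on low counts (adjusted p = 0.000921, 0.0430 and 0.0270). Rps27 also passed without WT tumour 2 (edgeR adjusted p = 0.0267). Without WT tumour 1 the log2 fold change of Rpl35 was -0.26 (edgeR adjusted p = 0.444).

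**Figure D3:**
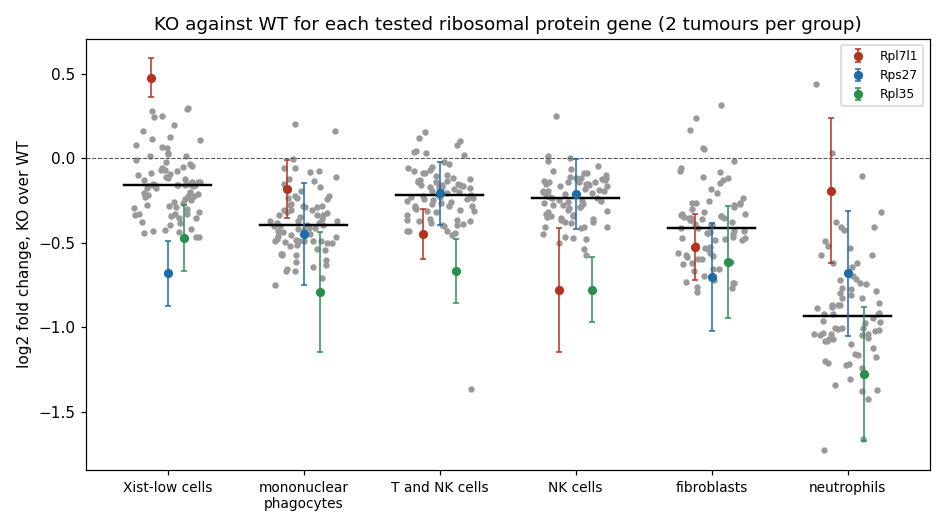
Log2 fold change, KO over WT (y axis), of each tested ribosomal protein gene in 6 classes (x axis), with the median as a black line and 3 genes in colour with bars of 1 standard error. Rpl7l1 lies at 0.48 in Xist-low cells and below 0 in the other 5 classes.

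The stalk proteins, which recruit elongation factors to the large subunit, did not separate the groups in Xist-low cells. Rplp0 stood at 31.9 and 25.7 UMIs per 10000 in WT and 27.3 and 33.5 in KO tumours, Rplp1 at 54.1 and 49.8 against 50.9 and 59.4, and Rplp2 at 33.2 and 31.0 against 29.8 and 31.5. Their log2 fold changes were 0.02, 0.03 and -0.12, none past the threshold. Rpsa, also known as a laminin receptor, stood at 36.3 and 30.5 against 32.3 and 37.7 UMIs per 10000. Rpl10a stood at 12.1 and 10.9 against 9.32 and 11.2. Rps6, the substrate of S6 kinase, stood at 7.37 and 7.11 against 6.89 and 6.23, without overlap, with a log2 fold change of -0.20 (edgeR adjusted p = 0.355).

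In the host classes tested the members' median log2 fold change was below 0, and 1 call passed, in NK cells. In mononuclear phagocytes 0 of 83 tested members were higher and 0 lower (edgeR), against 1.36% and 0.914% of all genes. At an unadjusted p under 0.05, 0 were higher and 1 lower, against 2707 of all 12904 genes in either direction. DESeq2 called 0 members higher and 0 lower, against 386 genes higher and 256 lower. The median log2 fold change was -0.39, against -0.03 over all genes, and 0.02 without WT tumour 1. Without WT tumour 2, 14 of 84 members passed as lower, against 507 of all 14200 genes. Both KO tumours lay below both WT tumours for 29 of 83 members, against 32.4% of all genes, and above for 0, against 20.3%.

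In T and NK cells 0 of 82 tested members passed in either direction by edgeR, against 2.08% of all genes higher and 1.61% lower. At an unadjusted p under 0.05, 0 were higher and 5 lower, against 2919 of all 12609 genes in either direction. Rpl35, Rps4l, Rpl7l1 and Rpl31 were among these 5, named after their values were seen. DESeq2 called 0 members higher and 1 lower (Rpl35), against 205 genes higher and 172 lower. The median was -0.22, against 0.00 over all genes, and -0.14 without WT tumour 1. Without WT tumour 2, 7 of 85 members passed as lower, against 1125 of all 14388 genes. Both KO tumours lay below both WT tumours for 11 of 82 members, against 16.8% of all genes, and above for 6, against 34%.

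Rpl35 fell in NK cells. Its level was 24.6 and 18.8 UMIs per 10000 in WT and 14.6 and 12.8 in KO tumours, without overlap, and its log2 fold change was -0.78 (standard error 0.19, edgeR adjusted p = 0.0225). It was the 1 of 80 tested members to pass, against 1.92% of all genes lower and 2.53% higher. The call was lost without KO tumour 1 (-0.83, edgeR adjusted p = 0.192) and without KO tumour 2 (-0.68, 0.370), and without WT tumour 2, 13 of 82 members passed as lower, against 278 of all 9162 genes. Most NK cells of every tumour were in 1 sub-cluster, but at a finer resolution one sub-cluster held 6 and 22 WT cells against 234 and 271 KO cells, and another held 114 and 64 against 6 and 7. Both KO tumours lay below both WT tumours for 14 of 80 members, against 16.3% of all genes, and above for 2, against 31.8%. In the whole T and NK class Rpl35 stood at 21.7 and 14.4 against 11.3 and 12.4 UMIs per 10000, and the change missed the threshold (log2 fold change -0.67, edgeR adjusted p = 0.0820). Both KO tumours lay below both WT tumours for Rpl35 in each of the 6 classes tested.

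In fibroblasts and neutrophils no gene of any kind passed by edgeR, so 0% of all genes is the background. At an unadjusted p under 0.05, 3 of 83 members were lower in fibroblasts and 55 of 80 in neutrophils, and none was higher. Over all genes, 1624 of 11600 in fibroblasts and 631 of 4762 in neutrophils passed in either direction at that level. DESeq2 called 0 members in fibroblasts, against 120 genes higher and 55 lower. In neutrophils it called 2 members lower, against 2 genes higher and 3 lower. The medians were -0.41 in fibroblasts and -0.93 in neutrophils. Both KO tumours lay below both WT tumours for 72 of 83 members in fibroblasts, against 29.2% of all genes, and for 66 of 80 in neutrophils, against 19.6%. For no member did they lie above in either class, against 18.8% and 28.8% of all genes. The estimated free RNA shares given above were also higher in both WT tumours in these classes. After its subtraction the median was -0.23 in fibroblasts and 0.44 in neutrophils, and without WT tumour 1 the neutrophil median was -0.41. WT tumour 1 had 51 neutrophils with 57008 UMIs in all.

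Whether the KO effect differed between classes was tested with an interaction term in edgeR, with each tumour as a block. Against T and NK cells, 4 of 87 members differed: Rpl7l1, Rps2 and Rpl8 were relatively higher in Xist-low cells and Rps27 relatively lower. Over all genes, 5.68% were called relatively higher and 3.33% relatively lower. Rpl7l1 had a difference of 0.92 (standard error 0.15, edgeR adjusted p = 0.00301). Its level in T and NK cells was 0.646 and 0.576 UMIs per 10000 in WT and 0.483 and 0.462 in KO tumours, the opposite order to that in Xist-low cells. Rps2, a small-subunit protein at the mRNA entry, stood in Xist-low cells at 52.2 and 49.8 UMIs per 10000 in WT and 59.1 and 69.3 in KO tumours. In T and NK cells it stood at 28.4 and 20.8 against 20.1 and 25.4, and the difference was 0.45 (standard error 0.11, edgeR adjusted p = 0.0230). Rpl8 had a difference of 0.36 (standard error 0.10, edgeR adjusted p = 0.0437) and Rps27 of -0.47 (standard error 0.11, edgeR adjusted p = 0.0174). Without KO tumour 1 only Rpl7l1 passed, without KO tumour 2 no member did, and without the tumour block only Rpl7l1 passed. Against mononuclear phagocytes 0 of 88 members differed, and Rpl7l1 came nearest (0.61, standard error 0.17, edgeR adjusted p = 0.0714), against 2.9% of all genes relatively higher and 2.35% lower.

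**Figure D4:**
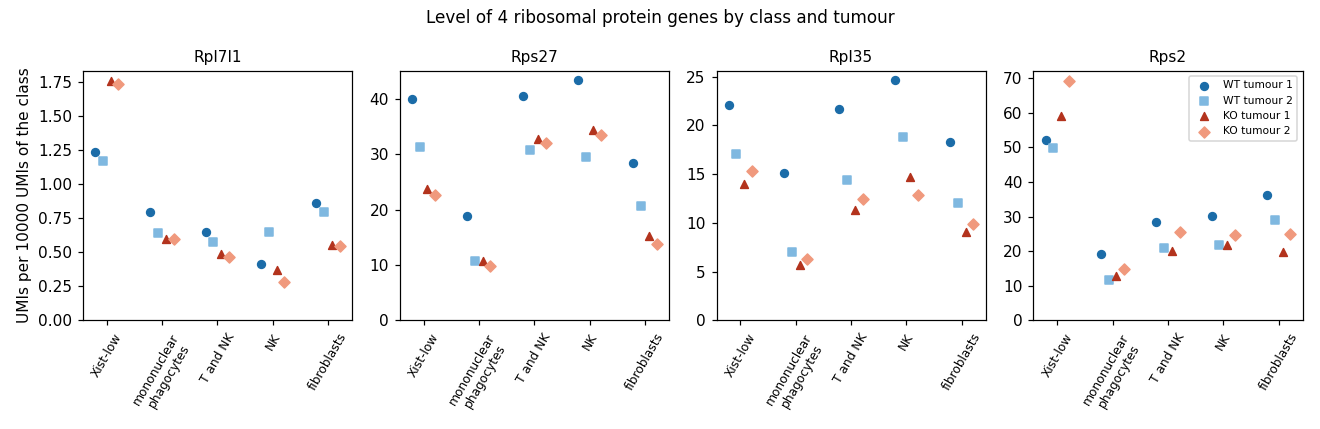
UMIs per 10000 UMIs of the class (y axis) for Rpl7l1, Rps27, Rpl35 and Rps2 in 5 classes (x axis), 1 point for each tumour. For Rpl7l1 the KO tumours are above the WT tumours in Xist-low cells, at 1.76 and 1.73 against 1.24 and 1.17.

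Several members have a close relative in the genome, and within these pairs the balance varied by class. The share of the relative is given as its UMIs in percent of both genes, not corrected for transcript length or free RNA. Rps27l, a relative of Rps27 known as a p53 target, made up 10.3% and 11.01% of its pair in Xist-low cells in WT, against 17.9% and 20.05% in KO. In fibroblasts it made up 12.9% and 12.6% against 18.6% and 21.2%, and in mononuclear phagocytes 19.3% and 22.7% against 27.5% and 29.3%. The KO tumours were above both WT tumours in these 3 classes. The same held in neutrophils (7.04% and 9.52% against 12.5% and 11.03%). In T and NK cells it made up 7.43%, 6.85%, 7.36% and 7.62%, with the groups overlapping. NK cells had the opposite order, with 5.89% and 6.46% in WT against 5.23% and 5.18% in KO. By level, Rps27l stood in Xist-low cells at 4.58 and 3.87 UMIs per 10000 in WT and 5.14 and 5.66 in KO tumours (log2 fold change 0.30, edgeR adjusted p = 0.251).

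Rpl22l1, the relative of Rpl22, showed a wider range between classes. It made up 7.16% and 7.12% of its pair in Xist-low cells in WT, against 9.43% and 10.7% in KO. In fibroblasts it made up 19.3% and 13.9% against 29.7% and 28.9%, and in NK cells 21.4%, 22.7%, 22.1% and 23.6%. It made up 17.6% and 17.4% against 18.7% and 19.7% in T and NK cells, and in neutrophils 4.62% and 6.94% against 13.1% and 14.1%. The KO tumours were above both WT tumours in Xist-low cells, fibroblasts, T and NK cells and neutrophils. The WT tumour 1 value in neutrophils rests on 3 Rpl22l1 and 62 Rpl22 UMIs (exact 95% interval 0.962% to 12.9%). Estimated free RNA was higher in WT than in KO fibroblasts (45.1% and 43.5% against 11.7% and 18.1%). It was also higher in WT neutrophils (37.8% and 15.7% against 11.7% and 9.24%), and its part in these pair shares was not tested. In NK cells and in mononuclear phagocytes (15.5%, 11.8%, 10.5% and 13.6%) the groups overlapped. Rpl7l1 made up 8.98% and 9.64% of its pair with Rpl7 in Xist-low cells in WT, against 13.6% and 12.2% in KO. The groups overlapped for this pair in mononuclear phagocytes (10.5%, 13.5%, 13.5% and 12.5%), NK cells and neutrophils. The order was the opposite in T and NK cells, at 6.20% and 6.67% in WT against 5.50% and 4.78% in KO. It was also the opposite in fibroblasts, at 9.30% and 10.2% against 8.85% and 7.91%. Rpl7 itself stood in Xist-low cells at 12.5 and 10.98 against 11.2 and 12.4 UMIs per 10000, with the groups overlapping. As above, 2 tumours against 2 cannot pass an exact test, and these pair shares were not tested.

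**Figure D5:**
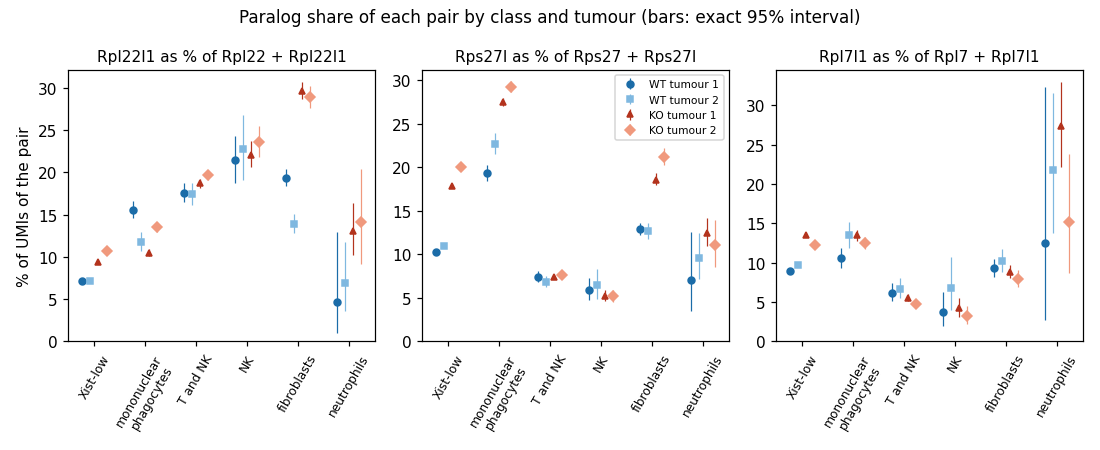
Share of the relative in the UMIs of each pair (y axis, percent) in 6 classes (x axis), 1 point for each tumour with an exact 95% interval for counting error. Rps27l in Xist-low cells is at 10.3% and 11.01% in WT and at 17.9% and 20.05% in KO tumours.

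The remaining relatives were rare. Rpl3l, known from striated muscle, had 1, 4, 22 and 8 neutrophil UMIs (WT tumours first), which was 2.08%, 3.81%, 7.03% and 6.30% of its pair with Rpl3. In mononuclear phagocytes it was 0.179% to 0.206% of the pair, and in fibroblasts it had no UMI. Rpl39l, known from testis, was counted mainly in fibroblasts, with 153, 21, 162 and 177 UMIs (1.45%, 0.342%, 1.10% and 2.30% of its pair with Rpl39). Rps4l, annotated as a transcribed processed pseudogene, made up 2.29%, 1.17%, 3.25% and 3.89% of its pair with Rps4x in fibroblasts. Rps4l had, in T and NK cells, 16, 11, 38 and 28 UMIs (log2 fold change -1.37, standard error 0.37, edgeR adjusted p = 0.0749). Rpl10l had 1 UMI in the 6 classes together.

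Other genes of ribosome production were read from 5 lists. Of 28 genes for ribosome assembly and RNA polymerase I, 4 rose and 0 fell in Xist-low cells, against 4.73% of all genes higher and 4.55% lower. Their median log2 fold change was 0.35, against -0.01 over all genes. Rrp9, a U3 small nucleolar RNA-binding protein, stood at 37.0 and 34.6 CPM in WT and 59.3 and 61.9 in KO tumours (0.76, standard error 0.10, edgeR adjusted p = 0.0145). Fbl, the methyltransferase of box C/D particles, stood at 144 and 137 against 189 and 207 CPM (0.49, standard error 0.12, edgeR adjusted p = 0.0465). Nop56, a core protein of the same particles, stood at 147 and 143 against 198 and 202 CPM (0.46, standard error 0.11, edgeR adjusted p = 0.0479). The count of genes that rose ran from 1 to 10 when 1 tumour was left out. In mononuclear phagocytes 1 of the 28 rose and 0 fell (median -0.25), against 1.36% and 0.914% of all genes. In T and NK cells 0 rose and 2 fell (median -0.49), against 2.08% and 1.61%.

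Among 20 regulators of ribosomal protein synthesis, 19 could be tested in the Xist-low class, where 1 rose and 1 fell, near the shares of all genes (4.73% and 4.55%). Sesn2, a leucine sensor that restrains mTORC1, stood at 14.2 and 15.3 CPM in WT and 26.1 and 32.05 in KO tumours (0.98, standard error 0.14, edgeR adjusted p = 0.0156). Ddit4, another brake on mTORC1, stood at 53.9 and 81.9 against 31.9 and 30.8 CPM (-1.11, standard error 0.19, edgeR adjusted p = 0.0244). Myc, which drives transcription of ribosome genes, stood at 58.1 and 48.0 against 81.0 and 71.8 CPM and did not pass (0.53, standard error 0.13, edgeR adjusted p = 0.0523).

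Of 78 mitochondrial ribosomal protein genes, each with enough counts in the Xist-low class, 1 rose and 0 fell, a smaller share than the 4.73% and 4.55% of all genes, with a median of 0.13. The gene was Mrpl47, at 25.4 and 27.8 CPM in WT and 41.2 and 35.5 in KO tumours (0.53, standard error 0.12, edgeR adjusted p = 0.0437). Mrpl22 and Mrpl37 came next and did not pass (0.41 and 0.36, edgeR adjusted p = 0.0653 and 0.0700). In T and NK cells the median was -0.29 over 77 tested genes, with 0 called, against 2.08% of all genes higher and 1.61% lower.

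Of 21 translation factors and other mRNAs with a pyrimidine tract, 0 passed in either direction in Xist-low cells, with a median of -0.04. Over all genes 4.73% were higher and 4.55% lower there. Tpt1, one of the most abundant of these mRNAs, stood at 7148 and 8386 CPM in WT and 5211 and 5796 in KO tumours (-0.50, standard error 0.20, edgeR adjusted p = 0.149). Pabpc4 and Hnrnpa1 had log2 fold changes of 0.39 and 0.30 (edgeR adjusted p = 0.191 and 0.221). The 4 listed ribosomal protein genes that the naming rule leaves out, Fau and Rack1 among them, had a median of -0.32 with 0 called. Fau, which encodes the small-subunit protein S30, stood at 4261 and 3418 against 2334 and 2879 CPM (-0.56, standard error 0.20, edgeR adjusted p = 0.121).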

How the data were processed

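The authors deposited whole-number UMI counts per gene and barcode, not normalized. The labels' protocols give Cell Ranger 5.0.1 with mm10, the file headers give 6.1.2, and the submitters' processing notes add Seurat 5.1.0 without its role. Barcodes were kept from 300 genes and 500 UMIs upward and up to a mitochondrial share of 20%. Scrublet's own cut marked 0% to 4.52% of barcodes, so the highest scores were removed instead, at a rate that grew with the number of barcodes. Cells were clustered with scanpy 1.11.5 (2000 variable genes, 30 components, 15 neighbours, Leiden resolution 1.0) and named where at least 3 fixed markers passed. Such clusters stayed unnamed if over 50% were doublets, if another class led their top genes, or if shallow without a top marker. A cluster with mononuclear phagocyte markers was left out this way, with 809 and 664 WT and 280 and 327 KO barcodes. So was a shallow one with 438 and 418 against 524 and 376. The phagocyte class kept 545 and 792 WT and 2719 and 1971 KO cells.

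Sums of counts for each class in each tumour were tested with edgeR 4.0.16 (quasi-likelihood, TMM, filter on low counts, Benjamini-Hochberg adjustment, threshold 0.05) over all genes. CPM values are TMM-scaled, and UMIs per 10000 are not. DESeq2 1.42.0 was an alternative, with others on scaling, filter, depth, doublets, free RNA, block and single tumours. Tested on simulated data for Xist-low cells (17994 genes), the test found 45.5% of 1.5-fold changes, 95% of 2-fold and 100% of 4-fold changes. For mononuclear phagocytes (12904 genes) the shares were 3.70%, 41.7% and 100%.

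The members and lists were chosen with earlier results of these data known. Named genes were members past the threshold in the main classes, 7 fixed pairs of relatives, the stalk proteins, Rpsa, Rps6 and Rpl10a, and up to 3 genes of each other list by adjusted p in Xist-low cells. Rpl35, Rps2, Rpl8, Rpl23, Rpl41 and Rpl31 were named outside this rule, after their values were seen. Some genes are not reported here.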

Additional observations from a re-analysis of the deposited data

Results flagged for a closer look

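For 4 ribosomal protein genes the change in Xist-low cells differed from that in T and NK cells by an interaction term (edgeR adjusted p under 0.05 over all genes). Over all genes, 5.68% were called relatively higher and 3.33% relatively lower. Without the tumour block only Rpl7l1 passed among the members. The difference, Xist-low minus T and NK cells on the log2 scale, was 0.923 for Rpl7l1, 0.453 for Rps2, 0.357 for Rpl8 and -0.466 for Rps27. When 1 tumour was left out, the difference ranged from 0.783 to 0.956 for Rpl7l1, from 0.320 to 0.472 for Rps2, from 0.293 to 0.370 for Rpl8 and from -0.627 to -0.432 for Rps27. The groups of 2 tumours are too small for a check of single outlying samples.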

How the results depend on the processing

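Of 202 alternative values for the main counts and shares, 166 stayed within 1.5 times the count or within the spread between replicates, and 36 moved further. The share difference changed sign without WT tumour 1 in T and NK, NK, regulatory T, gamma-delta T, dendritic and mural cells, and after subtraction of free RNA in neutrophils. In Xist-low cells the count of members called higher (1) was 0 with a replicate block and 0 in cells of 5000 to 20000 UMIs. The count called lower (0) was 7 with DESeq2 and 4 without the filter on low counts. Over all genes these settings called 817 and 438 higher, and 1282 and 2054 lower, in the same order. For T and NK cells the count called lower (0) was 1 with DESeq2, 3 without the filter and 2 with doublets kept. It was 1 in cells of 5000 to 20000 UMIs and 1 without sub-clusters of 1 tumour (added after seeing the data). Over all genes 172, 674, 670, 189 and 327 were called lower, in the same order. Mononuclear phagocytes had 1 lower without the filter, against 799 of all 24193 genes. Neutrophils had 2 lower with DESeq2, 2 lower with the replicate block and 1 higher after subtraction of free RNA. Over all genes the counts were 3 lower, 30 lower and 1 higher. The share difference became -4.55 percentage points in Xist-low cells of 5000 to 20000 UMIs, and 0.00495 in neutrophils and -1.47 in fibroblasts after subtraction of free RNA. The interaction called 1 member against T and NK cells without the tumour block, and 1 against mononuclear phagocytes without the filter. The cause was not tested in these cases.

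When 1 tumour was left out, members called in Xist-low cells ranged from 0 to 1 in each direction. Those called lower ranged from 0 to 14 in mononuclear phagocytes, 0 to 7 in T and NK cells, 0 to 31 in neutrophils and 0 to 13 in NK cells, each highest without WT tumour 2. Interaction calls ranged from 0 to 6 against T and NK cells and 0 to 4 against mononuclear phagocytes. The share difference ranged from -3.61 to -0.681 in Xist-low cells, -6.34 to -0.192 in mononuclear phagocytes, -4.67 to 0.567 in T and NK cells, -6.56 to -0.783 in neutrophils, -6.96 to -2.94 in fibroblasts, -5.02 to -1.5 in CD8 T cells and -5.17 to 1.42 in NK cells. A lone tumour was assumed to vary like the other group.

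Replicate numbers did not pair the tumours: deviations of same-numbered tumours correlated at -0.29 in Xist-low cells, -0.34 in mononuclear phagocytes and -0.60 in fibroblasts. They correlated at -0.09 in T and NK cells, 0.001 in neutrophils and 0.006 in NK cells. Crossed numbers, added after seeing the data, were run only in the classes with the stronger negative correlations. That pairing was picked from the same values, so its larger counts cannot be read as support. With it, 2 of 86 members were higher and 15 lower in Xist-low cells. Over all genes there, 2260 of 17994 were higher and 2248 lower. In mononuclear phagocytes 5 of 83 members were lower, against 1205 of all 12904 genes. In fibroblasts 16 of 83 were lower, against 823 of all 11600 genes. CD8 T cells were too few in WT tumours for counts to be tested or for the limit of 5000 to 20000 UMIs, which was not run. Neutrophils of WT tumour 1 and the rare relatives rest on few UMIs.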
